A study of Mus musculus with 32 samples.

Results

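The 64 genes described here code for proteins of the spliceosome, the machine that removes introns, and for RNA-binding proteins that steer it. They were taken by a rule on symbols that uses no measured values, but that was chosen with earlier results of these data known. The rule takes every symbol that begins with Srsf and a digit (SR proteins, 11 genes), Hnrnp (hnRNP proteins, 20 genes), Snrp other than Snrpn (snRNP proteins, 11 genes), Sf3a or Sf3b (SF3 complexes, 9 genes) or Prpf (13 genes). All 64 were present among the 24013 genes of a table of developmental stages and among the 22536 genes of each of 2 knockdown tables.

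The tables hold FPKM, fragments scaled for transcript length and for the number of mapped fragments, from mouse RNA sequencing by a modified Smart-seq2 protocol, which copies full-length cDNA from very few cells. MII oocytes (2 samples) came from superovulated C57BL/6N females, 20 h after hCG injection. Embryos taken as zygotes and at the early 2-cell, 2-cell, 4-cell and 8-cell stages (2 samples per stage) and the inner cell mass (ICM, 3 samples, isolated by immunosurgery from blastocysts) came from superovulated C57BL/6N females after mating to DBA/2N males. The mouse embryonic stem cells (mESC, 2 samples) were of the R1 line, grown with LIF and serum. The stage table gives 1 deposited value per gene and stage, so it carries no replicate error and its differences were not tested. The knockdown tables give 1 value per library, for 8-cell embryos (4 control and 4 Nr5a2 knockdown libraries) and blastocysts (3 control and 4 Gata4 knockdown libraries) of the C57BL/6N x DBA/2N cross, the knockdown embryos injected with siRNA and cultured in CZB medium with glutamine. What the control embryos received is not given in the sources used here. The labels name no separate litters or cultures, so p-values measure only how these samples scatter, and that scatter may be technical. In such bulk samples fewer cells of a type and less RNA per cell cannot be told apart.

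Splicing proceeds by ordered assembly. U1 and U2 small nuclear ribonucleoproteins (snRNPs) mark the 5′ splice site and the branch point, the U4/U6.U5 tri-snRNP joins, and the machine is rearranged for catalysis. Most of these particles share a ring of 7 Sm proteins. SR proteins commonly help exons to be recognised, and hnRNP proteins, which coat nascent transcripts, often oppose them. A growing mouse oocyte stores transcripts for the first divisions, stops transcribing before ovulation, and the embryo's own genome becomes strongly active at the 2-cell stage.

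The promoters of the members that differed most between early 2-cell and 2-cell embryos are shown first, because that step held the largest differences between neighbouring stages in these genes. RefSeq (GRCm38.p6) gave a promoter entry for 56 of the 64 members. Entries were missing for 8, among them Snrpb, Snrpd1, Sf3b4 and Sf3b5. Each sequence lies within the 250 bases before the start of the gene and is written 5′ to 3′ on the gene's strand, without bases that any GENCODE M21 transcript places in an exon. Members with a free stretch of at least 150 bases were taken in order of their difference. Capitals mark, on either strand, CCAAT (the CCAAT box), GGGCGG (the GC box) and CCGGAAG (an ETS core). Sf3b6 (chr12:4817358-4817543, plus strand), Hnrnpab (chr11:51606882-51607131, minus strand), Snrpa1 (chr7:66060086-66060298, plus strand) and Snrpa (chr7:27196272-27196521, minus strand) were higher in 2-cell embryos. Prpf6 (chr2:181601069-181601315, plus strand), Snrpb2 (chr2:143062819-143063038, plus strand) and Sf3b3 (chr8:110846813-110847023, minus strand) were lower.
Sf3b6: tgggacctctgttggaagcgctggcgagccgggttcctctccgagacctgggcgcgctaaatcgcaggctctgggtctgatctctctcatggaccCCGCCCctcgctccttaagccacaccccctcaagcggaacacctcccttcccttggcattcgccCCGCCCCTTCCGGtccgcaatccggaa
Hnrnpab: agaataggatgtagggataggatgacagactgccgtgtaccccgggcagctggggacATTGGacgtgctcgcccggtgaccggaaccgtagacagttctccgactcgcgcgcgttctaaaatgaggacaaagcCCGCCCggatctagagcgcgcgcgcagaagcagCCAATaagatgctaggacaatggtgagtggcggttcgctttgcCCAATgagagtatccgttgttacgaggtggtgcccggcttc
Snrpa1: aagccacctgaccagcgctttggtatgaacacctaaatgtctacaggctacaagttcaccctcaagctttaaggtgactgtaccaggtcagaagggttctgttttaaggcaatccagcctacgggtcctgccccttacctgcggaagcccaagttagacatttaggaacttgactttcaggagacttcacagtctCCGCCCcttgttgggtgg
Snrpa: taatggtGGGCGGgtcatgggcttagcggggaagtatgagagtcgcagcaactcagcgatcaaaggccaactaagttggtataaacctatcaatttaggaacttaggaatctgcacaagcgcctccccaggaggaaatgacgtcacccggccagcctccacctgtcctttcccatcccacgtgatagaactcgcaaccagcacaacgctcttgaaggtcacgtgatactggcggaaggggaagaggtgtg
Prpf6: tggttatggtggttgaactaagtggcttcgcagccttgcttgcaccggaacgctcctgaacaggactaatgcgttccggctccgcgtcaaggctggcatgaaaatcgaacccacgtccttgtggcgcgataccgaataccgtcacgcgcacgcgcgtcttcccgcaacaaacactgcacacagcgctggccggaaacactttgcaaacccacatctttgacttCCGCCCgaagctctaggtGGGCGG
Snrpb2: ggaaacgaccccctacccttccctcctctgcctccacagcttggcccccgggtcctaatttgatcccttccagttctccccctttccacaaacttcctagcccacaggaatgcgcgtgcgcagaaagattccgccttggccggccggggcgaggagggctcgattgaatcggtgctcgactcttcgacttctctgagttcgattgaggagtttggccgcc
Sf3b3: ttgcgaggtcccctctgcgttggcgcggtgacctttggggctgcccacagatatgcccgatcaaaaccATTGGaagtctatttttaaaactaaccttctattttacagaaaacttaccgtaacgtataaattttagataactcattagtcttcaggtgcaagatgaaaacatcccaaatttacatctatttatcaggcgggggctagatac

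In the printed stretches the GC box occurred in all 4 promoters of genes that were higher and in that of Prpf6, the CCAAT box in Hnrnpab and Sf3b3, and the ETS core in Sf3b6 alone. Over whole 250-base windows, both strands searched, 38 of 56 members held the GC box (67.9%), against 32.9% of 27025 promoters of all genes and 57.9% of 7213 promoters of genes that reached 5 FPKM at some stage. The ETS core was found in 17 members (30.4%), against 7.05% of all promoters and 15.4% of those of genes at 5 FPKM. The CCAAT box stood in 26 members (46.4%), against 34.5% and 38.1%. TATAAA, the TATA box, was in 5 members (8.93%), against 13% and 6.74%. The half-site bound by NR5A2, AAGGTCA, was in 3 members (5.36%), against 4.05% and 2.86%. A site for GATA factors, AGATAA, was likewise in 3 members (5.36%), against 10.3% and 5.91%. The palindromic NRF1 site was in 0 members, against 0.781% and 1.8%. None of the 7 motifs contains another, though neighbouring matches can abut, and a match is a run of letters, not a measured site. The median GC content was 60.0% over members, 52.0% over all promoters and 59.2% over those of genes at 5 FPKM, and its part in these shares was not tested. Of the members higher in 2-cell embryos, 17 of 23 with an entry held the GC box and 7 the ETS core. Of those lower, 3 of 4 held the GC box and 3 the ETS core, in part in bases next to the start that are not printed.

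Some facts of the samples touch the results below. The ribosomal precursor Rn45s was listed at 6967, 6829 and 2555 FPKM in the MII oocyte, early 2-cell and mESC columns and at 0 in the other 5, and at 0 in 3 of the 7 blastocyst libraries (control 2 and knockdowns 1 and 2), against 37959 to 44718 FPKM in the other 4. Columns therefore fall into 2 kinds, and the steps from MII oocyte to zygote, zygote to early 2-cell, early 2-cell to 2-cell, and ICM to mESC compare columns of different kinds. The kinds rest on Rn45s alone. Sample numbers form 2 runs. The later run holds MII oocytes, early 2-cell embryos and both groups of the Nr5a2 experiment, and the earlier run all other samples. Comparisons of early 2-cell embryos with zygotes, 2-cell embryos or mESC, of MII oocytes with zygotes, and between sets of 8-cell samples cross these runs. What sets the runs apart is not given in the sources used here. Read totals were not used here. Steps between the lowest FPKM values gave relative depths of 1.0 to 2.91 across the 8-cell knockdown libraries and of 1.0 to 1.59 and 1.0 to 1.77 across blastocyst libraries with and without Rn45s. Of the marker genes, the oocyte gene Gdf9 was highest in MII oocytes at 3496 FPKM, while Bmp15 stood at 1000 FPKM there and at 1907 FPKM in zygotes. Nanog was at 288 FPKM in ICM and 94.4 FPKM in mESC and at or below 6.59 FPKM in the other stage columns. Among the stage columns Pou5f1 was highest in ICM at 149 FPKM, but its 26.1 FPKM in mESC lay below the 81.6 FPKM of MII oocytes. The feeder fibroblast genes Col1a2, Col3a1 and Lum were at 0 in mESC, with Col1a1 at 0.0566 and Thy1 at 0.332 FPKM. The cumulus cell gene Cyp19a1 stood at 24.7 FPKM in MII oocytes, while the other 6 cumulus genes were at or below 0.0883 FPKM there. The trophectoderm keratins Krt8 and Krt18 stood at 62.7 and 86.1 FPKM in ICM. The other trophectoderm genes listed were lower there, with Cdx2 at 1.61, Elf5 at 1.90, Gata3 at 7.43 and Tfap2c at 7.63 FPKM.

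Splicing factor transcripts took a smaller share of the MII oocyte, zygote and early 2-cell columns than of the later ones. The summed FPKM of the 64 members was 3176 in MII oocytes, 1919 in zygotes, 2061 in early 2-cell, 3223 in 2-cell, 5166 in 4-cell and 5358 in 8-cell embryos, 5544 in ICM and 6537 in mESC. As a share of each column's total this was 0.641%, 0.609% and 0.662% in the first 3 and 1.37%, 1.66%, 1.60%, 1.54% and 1.91% in the later 5. Both the sum and the share were higher in 2-cell than in early 2-cell embryos. Families differed in course. Between MII oocytes and 8-cell embryos the SR sum went from 186 to 813 FPKM, the hnRNP sum from 745 to 1641, the snRNP sum from 1487 to 2040 and the SF3 sum from 387 to 589. The Prpf sum went the other way, from 372 to 275 FPKM, but as a share of the column total it was 0.0750% in MII oocytes and 0.0819% in 8-cell embryos, so its direction depends on the scale. The MII oocyte column had the highest total of all, 495643 FPKM against 234738 to 360432 in the rest.

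**Figure D1:**
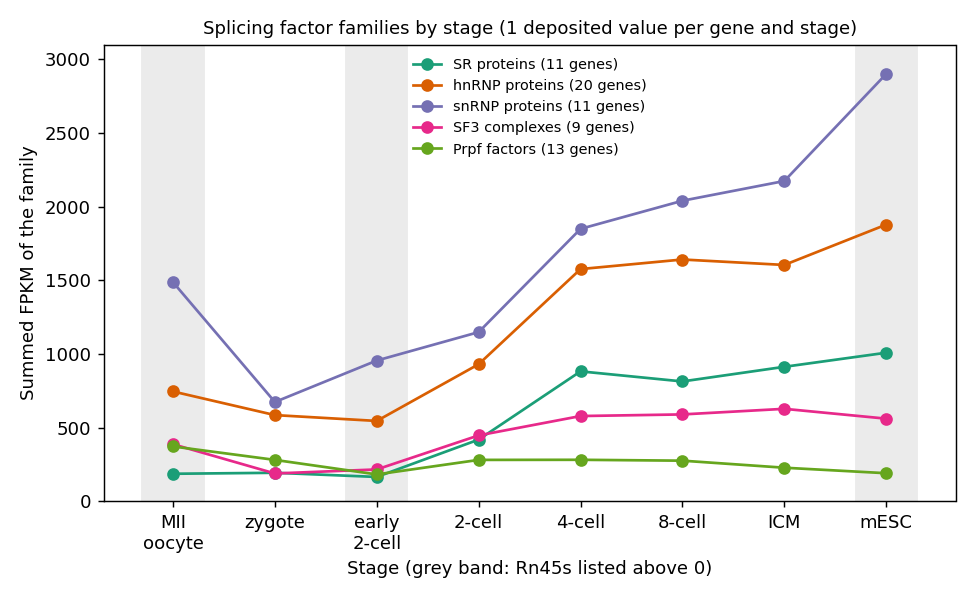
Summed FPKM of each splicing factor family (y axis) at 8 stages (x axis), 1 deposited value per gene and stage, with grey bands where Rn45s is listed above 0. The snRNP family has the highest sum at every stage, and the SR and hnRNP sums are higher in every column from 2-cell on than in the first 3.

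Of the 60 members that reached 5 FPKM at some stage, 12 had their highest value in MII oocytes (20.0%, against 26.2% of 9573 genes). In zygotes and early 2-cell embryos 0 members peaked, against 8.06% and 7.46% of all genes. The peak fell in 2-cell embryos for 3 (5.0%, against 8.02%) and in 4-cell embryos for 11 (18.3%, against 12.1%). It fell in 8-cell embryos for 10 (16.7%, against 9.74%), in ICM for 9 (15.0%, against 17.65%) and in mESC for 15 (25.0%, against 10.8%). The lowest value fell in early 2-cell embryos for 17 members (28.3%, against 9.88%) and in MII oocytes for 15 (25.0%, against 21.97%). For 11 it fell in 2-cell embryos (18.3%, against 7.59%) and for 10 in zygotes (16.7%, against 9.34%). Peaks in the oocyte included those of Snrpb2 and Snrpd3, of the SF3 genes Sf3a1, Sf3a2, Sf3b1 and Sf3b2, of Prpf6, Prpf18 and Prpf38b, of Srsf4 and of Hnrnph3. Core spliceosome genes made up 10 of these 12. The 15 peaks in mESC were those of 8 hnRNP genes, 4 snRNP genes, 2 SR genes and Sf3b6.

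The Sm ring was far from balanced in the FPKM of the MII oocyte column. Its genes code for 1 protein each in the heptamer that surrounds the U1, U2, U4 and U5 RNAs. In MII oocytes Snrpd3, Snrpe, Snrpd1, Snrpg and Snrpf stood at 296, 248, 230, 195 and 124 FPKM. Snrpb, which codes for SmB, and Snrpd2, which codes for SmD2, stood at 0.734 and 0.617 FPKM in the same column, so the highest ring gene exceeded the lowest by 480-fold. The ratio of highest to lowest was 103 in zygotes, 58.8 in early 2-cell, 6.17 in 2-cell, 3.63 in 4-cell and 6.47 in 8-cell embryos, 2.82 in ICM and 7.39 in mESC. Snrpb and Snrpd2 changed most. Snrpb went through 1.45, 4.30, 93.5, 237 and 461 FPKM from zygote to 8-cell embryos and then 370 in ICM and 153 in mESC. Snrpd2 went through 4.46, 5.40, 91.7, 160 and 168 FPKM and then 136 and 307. The other 5 ring genes lay between 39.3 and 277 FPKM in every embryo stage from zygote to 8-cell. In mESC Snrpe and Snrpd1 reached 801 and 534 FPKM. Snrpn, which codes for SmN, a close relative of SmB, is no member and stood at 6.34 FPKM in MII oocytes and 112 FPKM in 8-cell embryos. Snrpd1, Snrpd2, Snrpe, Snrpf and Snrpg each have a processed pseudogene or another copy with at least 95% identity over at least 50% of the coding sequence, so reads may be shared with these copies and their values are uncertain. Snrpb and Snrpd3 have none. Snrpf also shares 65.9% of its exon length with Ccdc38 on the opposite strand.

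**Figure D2:**
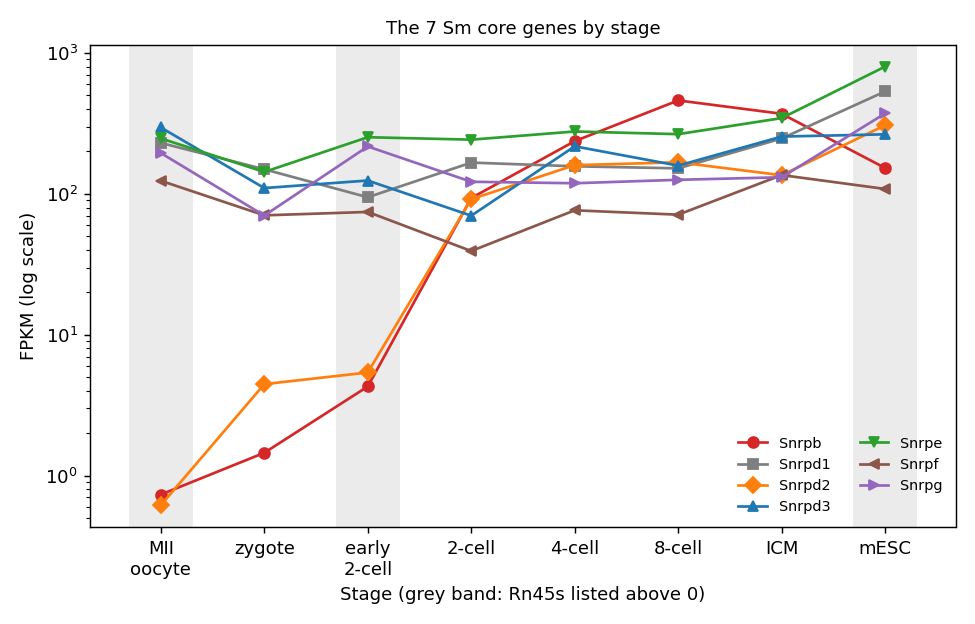
FPKM on a log scale (y axis) of the 7 Sm core genes at 8 stages (x axis), 1 deposited value each, with grey bands where Rn45s is listed above 0. Snrpb and Snrpd2 lie below 6 FPKM in the first 3 columns and above 90 FPKM in all later ones, while the other 5 genes stay above 39 FPKM throughout.

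Proteins particular to U1 and U2 moved apart. Snrpc (U1-C, which steadies the pairing of U1 with the 5′ splice site) stood at 3.12, 5.66, 22.9, 82.7, 242, 302, 131 and 27.9 FPKM from MII oocytes to mESC, and has near-identical pseudogenes. Snrpa (U1-A, which binds a stem-loop of U1 RNA) stood at 12.4, 10.96, 18.6, 126, 207, 157, 164 and 43.9 FPKM. Both U1 genes therefore peaked in cleavage embryos and were low at either end. The U2 genes Snrpa1 (U2-A′) and Snrpb2 (U2-B″) code for partners that bind U2 RNA together, yet their FPKM took different courses. Snrpa1 stood at 68.2, 27.6, 12.5, 92.3, 123, 138, 192 and 180 FPKM. Snrpb2 stood at 309, 79.8, 128, 21.5, 32.6, 42.4, 65.7 and 108 FPKM, highest of all 64 members in MII oocytes and lowest of the snRNP family in each of the 4 columns from 2-cell to ICM.

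SF3A and SF3B are the subcomplexes of U2 that hold the branch point. Of the 9 genes 4, Sf3a1, Sf3a2, Sf3b1 and Sf3b2, had their highest value in MII oocytes, and Sf3b5 and Sf3b6 were higher in every column from 2-cell on than in the first 3. Sf3b1, the large scaffold that contacts the branch point adenosine, stood at 120, 62.9, 64.3, 41.3, 72.8, 95.7, 82.7 and 49.9 FPKM from MII oocytes to mESC. Sf3a1 went from 59.7 FPKM in MII oocytes to 9.55 in 2-cell embryos and did not exceed 17.9 later. Sf3b2 had the same ends, with 50.6 and 16.3 FPKM, and 47.8 FPKM in 8-cell embryos. The small subunit Sf3b6, which lies at the branch point, stood at 8.05, 6.05 and 5.02 FPKM in the first 3 columns and at 141, 118, 130, 105 and 195 FPKM in the later 5. Sf3b5, another small subunit, stood at 55.1, 12.2 and 29.2 FPKM and then at 192, 215, 123, 245 and 178 FPKM. Sf3b3, a propeller-shaped scaffold, was at 33.4 FPKM in early 2-cell embryos, 7.12 in 2-cell and 28.0 in 4-cell embryos. Sf3b4, which has a near-identical pseudogene, went through 21.1, 9.28 and 38.1 FPKM at the same stages, and Sf3a3 through 13.3, 29.0 and 61.1 FPKM. Sf3a2 was the scarcest member of the family in each column from zygote on, at 0.691 to 3.84 FPKM there and 10.95 FPKM in MII oocytes.

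The Prpf genes, named after yeast pre-mRNA processing mutants, code for tri-snRNP and catalytic factors. Prpf8 forms the heart of U5, around which the active site is built, and stood at 26.4, 6.52, 6.03, 8.83, 19.0, 31.5, 21.1 and 7.60 FPKM from MII oocytes to mESC. Prpf6 bridges U5 and U4/U6 and stood at 141, 53.0, 38.9, 4.32, 17.7, 18.2, 16.7 and 11.4 FPKM, with its lowest value in 2-cell embryos. Prpf4 and Prpf31, both bound to U4/U6, were higher in 4-cell than in early 2-cell embryos, with Prpf4 at 2.35, 9.93 and 13.2 FPKM and Prpf31 at 5.11, 6.40 and 18.7 FPKM in early 2-cell, 2-cell and 4-cell embryos. Prpf3, the partner of Prpf4, stood at 19.4, 6.72 and 13.4 FPKM in zygotes, early 2-cell and 2-cell embryos. Prpf38a, needed for activation of the assembled spliceosome, peaked at 132 FPKM in 2-cell embryos and lay between 37.6 and 73.6 FPKM elsewhere. Prpf4b, a kinase of the tri-snRNP, went from 3.63 to 14.2 FPKM between early 2-cell and 2-cell embryos. Prpf18, a second-step factor, stayed between 29.1 and 35.8 FPKM from MII oocytes to 8-cell embryos and stood at 16.3 FPKM in ICM and 4.56 FPKM in mESC. Prpf39 lay between 5.39 and 18.6 FPKM, Prpf38b between 8.04 and 26.4, and Prpf19, the ubiquitin ligase that names the Prp19 complex, between 1.08 and 2.89 FPKM. Prpf40b stayed at or below 1.49 FPKM.

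SR protein genes mostly differed in one direction at the 2-cell stage. In early 2-cell embryos 7 of the 11 genes stood at 1.63 to 31.7 FPKM and then at 11.9 to 98.6 FPKM in 2-cell embryos, each higher by 1 or more on the log2(FPKM + 1) scale. Srsf1, a founding member of the family, stood at 2.96, 5.66, 5.04, 49.98, 59.9, 35.5, 31.0 and 57.7 FPKM from MII oocytes to mESC. Srsf7 stood at 31.0, 13.8, 10.6, 64.7, 246, 211, 152 and 235 FPKM. Srsf6 stood at 4.95, 2.00, 3.39, 20.95, 89.5, 84.8, 74.6 and 59.2 FPKM. Srsf2 had its highest value in mESC, with 1.47, 4.72, 3.51, 21.9, 28.0, 28.4, 81.7 and 152 FPKM. Srsf9 went from 0.420 FPKM in MII oocytes to 38.8 FPKM in mESC, and Srsf11 and Srsf5 from 5.01 and 31.7 FPKM in early 2-cell embryos to 33.1 and 98.6 FPKM in 2-cell embryos. Srsf3 differed, with 56.9, 75.1, 57.4, 37.2, 166, 264, 308 and 282 FPKM, and was the most abundant SR transcript in every column but 2-cell and 4-cell. Srsf10 lay between 34.0 and 90.5 FPKM. Srsf4 was highest in MII oocytes at 22.8 FPKM and lowest in 8-cell embryos at 3.99 FPKM, and it shares 43.0% of its exon length with an opposite-strand transcript. Srsf12 stayed at or below 0.124 FPKM. Srsf3, Srsf5 and Srsf10 have near-identical pseudogenes and are uncertain.

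The hnRNP family held abundant genes present at every stage beside genes that stood high only in later columns. Hnrnpc, which binds uridine runs and packages transcripts, stood at 96.9, 117, 102, 232, 391, 427, 344 and 244 FPKM from MII oocytes to mESC. Hnrnpf, a binder of G runs with near-identical copies, lay between 139 and 341 FPKM, and Hnrnpk, a binder of C runs with copies as well, between 49.6 and 283 FPKM with its peak in ICM. Hnrnpdl varied least of the family, between 40.3 and 71.6 FPKM. Hnrnpab stood at 3.18, 2.85 and 3.14 FPKM in the first 3 columns, at 37.6 to 49.2 FPKM from 2-cell to ICM, and at 181 FPKM in mESC. Hnrnpm stood at 8.69, 4.38, 4.30, 44.4, 83.9, 68.7, 69.5 and 72.7 FPKM. Hnrnpl, a binder of CA repeats, stayed between 1.25 and 9.44 FPKM up to ICM and stood at 63.5 FPKM in mESC. Hnrnpa0 and Hnrnpd had a like course, with at most 4.68 FPKM up to the 8-cell stage, 12.4 and 9.48 FPKM in ICM and 58.2 and 23.0 FPKM in mESC. Hnrnpa2b1 went from 99.2 FPKM in MII oocytes through 29.8 in early 2-cell embryos to 177 in 8-cell embryos. Hnrnpa1, a repressor of exon inclusion with 2 near-identical copies, stood at 9.62, 17.8, 22.6, 50.1, 189, 227, 64.1 and 289 FPKM. Hnrnpu was at 141 FPKM and Hnrnph1 at 119 FPKM in mESC, each above its values in the other 7 columns. Of the remaining genes Hnrnph2 reached 56.2 FPKM, Hnrnpa3 44.2, Hnrnpll 19.7, Hnrnph3 15.5, Hnrnpul2 12.3, Hnrnpr 10.1 and Hnrnpul1 3.21 FPKM at their highest stage.

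The steps between neighbouring stages were compared on log2(FPKM + 1), where a difference of at least 1 with at least 5 FPKM in the higher stage is called past the fold. From early 2-cell to 2-cell embryos 56 members reached 5 FPKM. Of these 26 were higher past the fold (46.4%) and 5 lower (8.93%), while among 7252 genes 34.7% were higher and 34.3% lower. The members higher were 7 SR, 8 hnRNP, 5 snRNP, 3 SF3 and 3 Prpf genes. Those lower were Prpf6, Snrpb2, Sf3b3, Sf3b4 and Sf3a1, so every SR and hnRNP gene past the fold was higher. The genes lower were 3 of 8 SF3 genes (37.5%), 1 of 11 snRNP genes (9.09%) and 1 of 11 Prpf genes (9.09%). The median difference was 0.88 over the 56 members and -0.04 over all genes at 5 FPKM. The largest differences upward were those of Sf3b6 (4.56), Snrpb (4.16), Snrpd2 (3.86) and Hnrnpab (3.60), and the largest downward those of Prpf6 (-2.91) and Snrpb2 (-2.52). With every stage scaled to the same total the split was 36 higher and 3 lower, and with every stage scaled to the same median 20 and 9, while the median over all genes at 5 FPKM moved to 0.48 and to -0.41. Over all genes the 2519 higher and 2489 lower became 3251 and 2125 at the same total and 2259 and 2954 at the same median. This step crosses kinds of column and runs of sample numbers. Zygotes, of the same kind as 2-cell embryos, gave 21 members higher (37.5%) and 4 lower (7.14%) among 56, against 33.7% and 36.3% of 7291 genes. The 2-cell column is common to the 2 comparisons. In the second Sf3b6 differed by 4.33, Snrpb by 5.27, Snrpd2 by 4.08, Hnrnpab by 3.71, Prpf6 by -3.34 and Snrpb2 by -1.85, in the same directions as in the first.

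**Figure D3:**
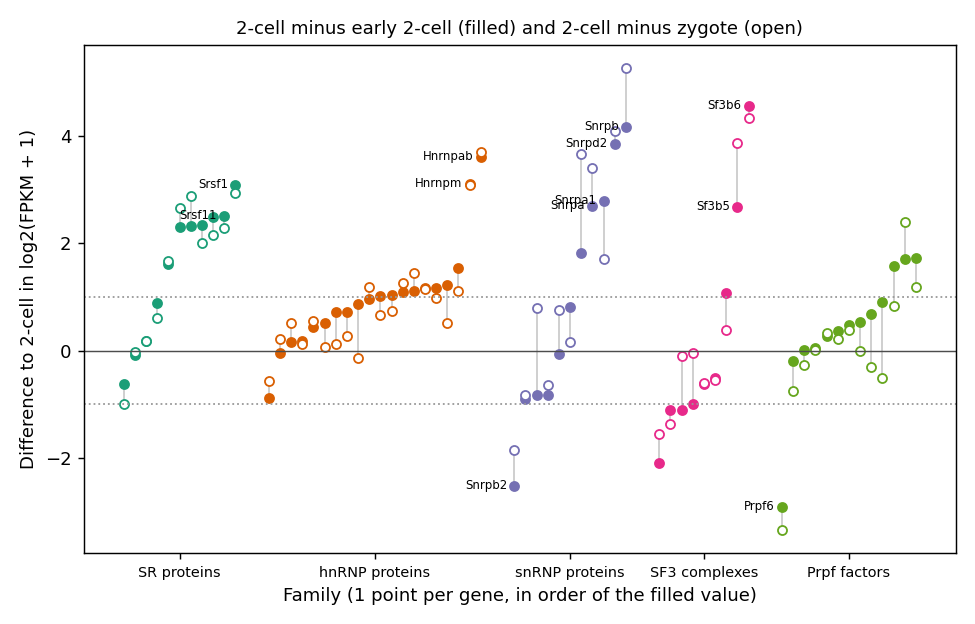
Difference to 2-cell embryos in log2(FPKM + 1) (y axis) for each of the 64 members by family (x axis), from early 2-cell embryos (filled) and from zygotes (open), with dotted lines at the fold of 1. In both comparisons 7 SR genes lie above the upper line and none below the lower line, while Prpf6, Snrpb2, Sf3b3 and Sf3a1 lie below the lower line.

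Before that step, fewer members were higher. From MII oocytes to zygotes 15 of 47 members at 5 FPKM were lower past the fold (31.9%, against 21.6% of 6246 genes) and 1, Sf3b3, was higher (2.13%, against 12.6%). Lower were 5 SF3 genes, 4 snRNP genes, 2 of each other family, led by Sf3a2 (-2.25), Sf3b5 (-2.09) and Snrpb2 (-1.94). This split followed the scale, with 11 higher and 4 lower at the same total and 2 and 12 at the same median, as it did over all genes, where 784 higher and 1352 lower became 1529 and 439 at the same total and 918 and 1085 at the same median. Early 2-cell embryos, of the same kind of column as MII oocytes, gave 17 members lower (34.7%, against 27.6%) and 4 higher (8.16%, against 14.1%) among 49. From zygotes to early 2-cell embryos 4 members were higher, Snrpc, Snrpg, Sf3b5 and Sf3b4 (8.51%, against 5.36%), and 3 lower, Prpf3, Snrpa1 and Hnrnpu (6.38%, against 8.58%), with 4 and 2 at the same total and 5 and 1 at the same median. Over all genes the 315 higher and 504 lower became 343 and 496 at the same total and 458 and 355 at the same median.

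Between 2-cell and 4-cell embryos 16 of 57 members were higher (28.1%, against 24.1% of 6572 genes) and 1, Hnrnpul2, was lower (1.75%, against 17.3%). Srsf3 (2.13), Srsf6 (2.04), Sf3b4 (1.93), Srsf7 (1.91) and Hnrnpa1 (1.90) differed most, and Prpf6 and Sf3b3, which had been lower in 2-cell embryos, were higher again by 1.81 and 1.84. The split was 10 and 4 at the same total and 12 and 2 at the same median, where over all genes 1581 higher and 1136 lower became 948 and 1901 and then 1263 and 1252. From 4-cell to 8-cell embryos 0 of 55 members passed the fold in either direction, against 6.90% higher and 9.71% lower among 6003 genes, and the largest differences were those of Snrpb (0.96) and Srsf5 (-0.98). From 8-cell embryos to ICM 5 members were higher, Srsf2, Hnrnpa0, Hnrnpa3, Hnrnpk and Hnrnpd (8.77% of 57, against 27.8%), and 2 lower, Hnrnpa1 and Snrpc (3.51%, against 21.9%). From ICM to mESC 16 of 59 members were higher (27.1%, against 11.6% of 6224 genes) and 6 lower (10.2%, against 40.6%). At the same median the members gave 22 and 2, and over all genes the 725 higher and 2527 lower became 1714 and 1168. Higher were 9 hnRNP genes, led by Hnrnpl (2.76), Hnrnpab (2.24) and Hnrnpa1 (2.16), and the Sm genes Snrpg, Snrpe, Snrpd2 and Snrpd1 (1.11 to 1.5). All of these Sm genes have near-identical copies. The ring genes without one, Snrpd3 and Snrpb, differed by 0.05 and -1.27, and Snrpf, which has a copy, differed by -0.33. Lower were Snrpc (-2.19), Snrpa (-1.87), Prpf18 (-1.64), Sf3b4 (-1.48), Prpf8 (-1.36) and Snrpb (-1.27). Early 2-cell embryos and mESC are of the same kind by Rn45s but of different runs of sample numbers. They gave 34 of 59 members higher in mESC (57.6%, against 33.7% of 7171 genes) and 2, Prpf18 and Prpf6, lower (3.39%, against 45.1%).

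Other genes of the pathway, counted where they reached 5 FPKM, are set against the 34.7% of all genes higher and 34.3% lower from early 2-cell to 2-cell embryos. Of 41 other snRNP and step factors 15 were higher past the fold (36.6%) and 2 lower (4.88%), with U11/U12 protein gene Snrnp25 differing by 3.76 and the U4/U6.U5 gene Snrnp27 by -1.51. Of 15 genes for snRNP assembly, the SMN complex and the methylosome that load Sm proteins onto snRNAs, 11 were higher (73.3%) and 3 lower (20.0%), from 4.28 for the methylosome gene Wdr77 to -2.38 for the SMN complex gene Gemin8. Exon junction complex genes, which mark spliced exon joints, gave 3 higher (60.0%) and 1 lower (20.0%) of 5, with Rbm8a at 2.41 and Magohb at -2.02. SR protein kinases, which phosphorylate SR proteins, gave 2 higher (33.3%) and 1 lower (16.7%) of 6, with Clk4 at 2.5 and Srpk2 at -1.48. Splicing regulators of other families gave 10 higher (43.5%) and 6 lower (26.1%) of 23, with Tra2a at 3.78 and Ptbp2 at -1.82. From ICM to mESC 9 of the 15 snRNP assembly genes were lower (60.0%, against 40.6% of all genes) and 0 higher (against 11.6%). Of the 7 Sm genes 4 were higher (57.1%) and 1 lower (14.3%) in that step. All 4 have near-identical copies, as has Snrpf, which did not pass the fold.

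The 8-cell stage was measured in the stage series and in control embryos of the Nr5a2 knockdown experiment, in tables normalized separately, so their levels are set side by side without a test. The 5 genes that differed most upward, Hnrnpf, Hnrnpa1, Hnrnph2, Srsf10 and Srsf3, each have a near-identical copy. Hnrnpf was at 288 FPKM in the stage column and at 21.3 to 25.0 FPKM in the 4 controls, Hnrnpa1 at 227 and 23.2 to 36.2 FPKM, Srsf3 at 264 and 46.2 to 61.3 FPKM, and Hnrnph2 at 55.6 and 5.94 to 8.75 FPKM. Of 15 members with such a copy at 5 FPKM, 9 were higher past the fold in the stage column and 0 lower, and the other 6 included Snrpd2 (-0.04), Snrpe (-0.01), Snrpf (-0.26) and Snrpg (-0.30). Of 42 members without one, 7 were higher and 5 lower, and of 5811 genes 25.5% were higher and 11.7% lower. Prpf39 (1.97) and Hnrnpc (1.82) were the highest of those without a copy, and the difference between members with and without one was not tested. Sf3a2 and Hnrnpl, which have no copy, were lower in the stage column, at 2.25 and 9.44 FPKM against 8.49 to 29.3 and 23.1 to 46.3 FPKM.

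Nr5a2, an orphan nuclear receptor, was knocked down in 8-cell embryos. Its own level was 23.6, 20.3, 13.1 and 25.2 FPKM in controls 1 to 4, and 3.76, 4.25, 6.72 and 6.60 FPKM in knockdowns 1 to 4 (log2 fold change -1.76, SE 0.27, limma adjusted p = 0.0143). Of the 64 members 60 passed the filter on low values, and Hnrnpa3, Hnrnpul2, Prpf40b and Srsf12 did not. No splicing factor gene changed at limma's adjusted threshold of 0.05, 0 higher and 0 lower, while of 8170 genes 1.57% rose and 0.698% fell (2.26% in either direction). Before adjustment limma gave p under 0.05 for 8 members higher and 5 lower, 13.3% and 8.33% of them, against 13.7% and 6.87% of all genes, and the groups did not overlap in 8 members higher and 3 lower, against 8.38% and 3.45%. The median log2 fold change was 0.10 over the 60 members and 0.12 over all genes tested.

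Sf3a2, a subunit of the branch point complex, had the smallest p. It stood at 15.9, 29.3, 8.49 and 22.7 FPKM in controls 1 to 4 and at 36.9, 38.3, 35.6 and 43.5 FPKM in knockdowns 1 to 4. All 4 knockdown libraries lay above all controls (log2 fold change 1.10, SE 0.31, limma adjusted p = 0.0887). Its opposite-strand neighbour Plekhj1 shares 16.1% of its exon length. Hnrnph3, an hnRNP that binds G runs, stood at 16.3, 12.03, 9.25 and 10.1 FPKM in controls and at 5.68, 6.29, 5.76 and 7.64 FPKM in knockdowns. Every knockdown library lay below every control (-0.79, SE 0.23, limma adjusted p = 0.0995). Snrpd2 of the Sm ring stood at 195, 171, 152 and 174 FPKM in controls and at 246, 324, 205 and 251 FPKM in knockdowns. The groups did not overlap (0.55, SE 0.16, limma adjusted p = 0.102).

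Hnrnph2, whose pseudogene makes it uncertain, stood at 8.75, 6.503, 7.14 and 5.94 FPKM in controls and at 15.5, 10.2, 9.12 and 17.9 FPKM in knockdowns (0.77, SE 0.26, limma adjusted p = 0.135). Snrpc of U1 stood at 200, 188, 155 and 156 FPKM in controls and at 212, 293, 203 and 281 FPKM in knockdowns (0.49, SE 0.17, limma adjusted p = 0.145). Prpf38a stood at 30.1, 24.9, 31.4 and 38.2 FPKM in controls and at 41.5, 48.3, 40.8 and 44.3 FPKM in knockdowns (0.49, SE 0.18, limma adjusted p = 0.165). In these 3 genes too the knockdown libraries lay above the controls without overlap. Prpf4b, the tri-snRNP kinase, had means of 6.03 ± 2.395 and 10.5 ± 2.08 FPKM (SD, n = 4 each), with groups that overlapped (limma adjusted p = 0.158). Sf3b1 had means of 48.9 ± 8.54 and 66.02 ± 7.45 FPKM, overlapping as well (limma adjusted p = 0.2005). The SR genes with the smallest p were Srsf5, with 52.0 ± 7.84 and 39.3 ± 14.3 FPKM (limma adjusted p = 0.328), and Srsf6, with 72.0 ± 9.40 and 87.0 ± 5.21 FPKM (limma adjusted p = 0.342), and both overlapped.

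**Figure D4:**
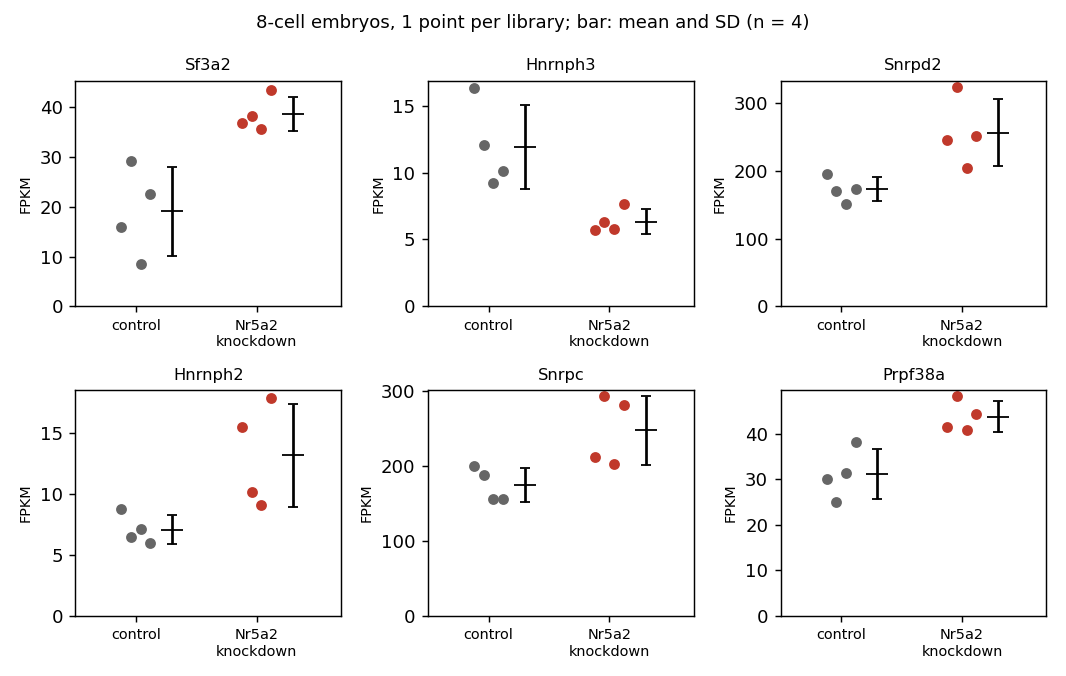
FPKM (y axis, from 0) of 6 splicing factor genes in 8-cell embryos (x axis), 4 control libraries and 4 with Nr5a2 knocked down, 1 point per library in order of its number, with mean and SD beside the points. In each panel the 2 groups do not overlap, and limma's adjusted p lies between 0.0887 (Sf3a2) and 0.165 (Prpf38a).

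By family, 10 of 11 snRNP genes had a positive fold change in the Nr5a2 knockdown (median 0.17), as had 8 of 12 Prpf and 5 of 9 SF3 genes tested, while 7 of 18 hnRNP and 4 of 10 SR genes did (medians -0.14 and -0.07). Of all genes tested 60.5% were positive, and with each library shifted to the same median the median over all genes moved from 0.12 to -0.01 and that over members to -0.03. Under that scaling 8 of 11 snRNP, 7 of 12 Prpf, 4 of 9 SF3, 4 of 18 hnRNP and 3 of 10 SR genes were positive. The summed snRNP FPKM was 1673 to 2031 in controls (1850 ± 150) and 2067 to 2173 in knockdowns (2114 ± 43.9, SD, n = 4 each), with no overlap. As a share of the total without Rn45s, the highest control stood at 0.7436% and the lowest knockdown at 0.7498%. In this sum 6 of the 11 genes have near-identical copies, Snrpc and Snrpd2 among them, and the sum without these was not tested. The Sm core sum alone overlapped, at 1300 to 1591 FPKM in controls and 1551 to 1664 FPKM in knockdowns. The sum of the U1 and U2 genes, Snrpc among them, did not, at 373 to 440 and 449 to 563 FPKM. The SR, hnRNP, SF3 and Prpf sums overlapped between the groups. Summed over all 64 members the FPKM was 3654 ± 250 and 3991 ± 197, and these ranges overlapped. Of the lists of other pathway genes, none held a gene that passed the limma threshold. Before adjustment p was under 0.05 for 4 higher and 3 lower of 46 snRNP and step factors, 0 of 5 exon junction genes, 2 higher of 5 tested SR protein kinases, 2 higher and 2 lower of 24 tested regulators and 3 higher of 14 tested snRNP assembly genes.

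Gata4, a transcription factor of the endoderm lineage, was knocked down in blastocysts. Its level was 3.18, 0.716 and 5.44 FPKM in controls 1 to 3, and 0, 0.368, 0 and 0 FPKM in knockdowns 1 to 4, below every control but too low for the filter. Of the 64 members 60 were tested, and Hnrnpa3, Hnrnpr, Prpf40b and Srsf12 were not. No member changed by limma's adjusted p, 0 higher and 0 lower, and 0 had an unadjusted p under 0.05, while of 8782 genes 0 rose, 0.0342% fell, and 0.957% and 1.34% had an unadjusted p under 0.05 in the higher and the lower direction (202 genes). The groups overlapped in every member, while 0.945% of all genes were higher and 1.43% lower without overlap. The median log2 fold change was 0.02 over members and -0.02 over all genes tested.

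Blastocyst values differed between the kinds of library. Of the 60 members tested 52 were lower in every library with Rn45s than in every library without it (86.7%, against 52.5% of all genes), and 0 were higher. Snrpd3 stood at 75.3, 125 and 43.4 FPKM in controls 1 to 3 and at 136, 124, 72.4 and 58.2 FPKM in knockdowns 1 to 4, with the 3 highest values in the 3 libraries without Rn45s. Prpf6, which had the smallest p of the members, stood at 8.37, 11.6 and 10.95 FPKM in controls and at 10.7, 6.92, 5.94 and 4.94 FPKM in knockdowns, with overlap (log2 fold change -0.51, SE 0.41, limma adjusted p = 1.0). Within libraries with Rn45s it differed by -0.72, and without Rn45s by -0.39. Snrpc stood at 38.9, 54.0 and 33.9 FPKM in controls and at 61.4, 65.0, 61.6 and 49.6 FPKM in knockdowns, with overlap (0.50, SE 0.41, limma adjusted p = 1.0). Within the 2 kinds it differed by 0.59 and 0.22. Hnrnpab stood at 16.3, 30.5 and 10.9 FPKM in controls and at 35.9, 34.2, 18.5 and 17.6 FPKM in knockdowns (0.49, SE 0.45, limma adjusted p = 1.0). Its 3 highest values were in the libraries without Rn45s, within kinds it differed by 0.41 and 0.20, and it shares 29.1% of its exon length with Phykpl on the opposite strand. All 11 snRNP genes had a positive fold change over all libraries, against 47.5% of all genes tested, with a median of 0.28. After quantile normalization 8 of 11 did. Without control 3, 3 of 11 were positive (median -0.10), without knockdown 1 it was 7 (0.07) and without knockdown 2 it was 8 (0.05). The medians over all genes tested were then -0.09, -0.16 and -0.11. Within the libraries that hold Rn45s 6 of 11 were positive (median 0.04), and within those that lack it 8 of 11 (median 0.05). In the first kind 0 of 9 SF3 and 1 of 10 SR genes were positive, with medians of -0.32 and -0.18, and in the second 3 of 9 and 5 of 10, with medians of -0.15 and -0.01. Over all genes tested the median in the first kind was -0.18, the same as that of the SR genes. Both kinds of library occur in both groups but in unequal shares, since 1 of 3 controls and 2 of 4 knockdowns lack Rn45s, and the medians over all libraries are larger than those within either kind for the snRNP genes. None of the lists of other pathway genes held a gene that passed the limma threshold, and 1 of their genes, an snRNP or step factor, was lower with an unadjusted p under 0.05.

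**Figure D5:**
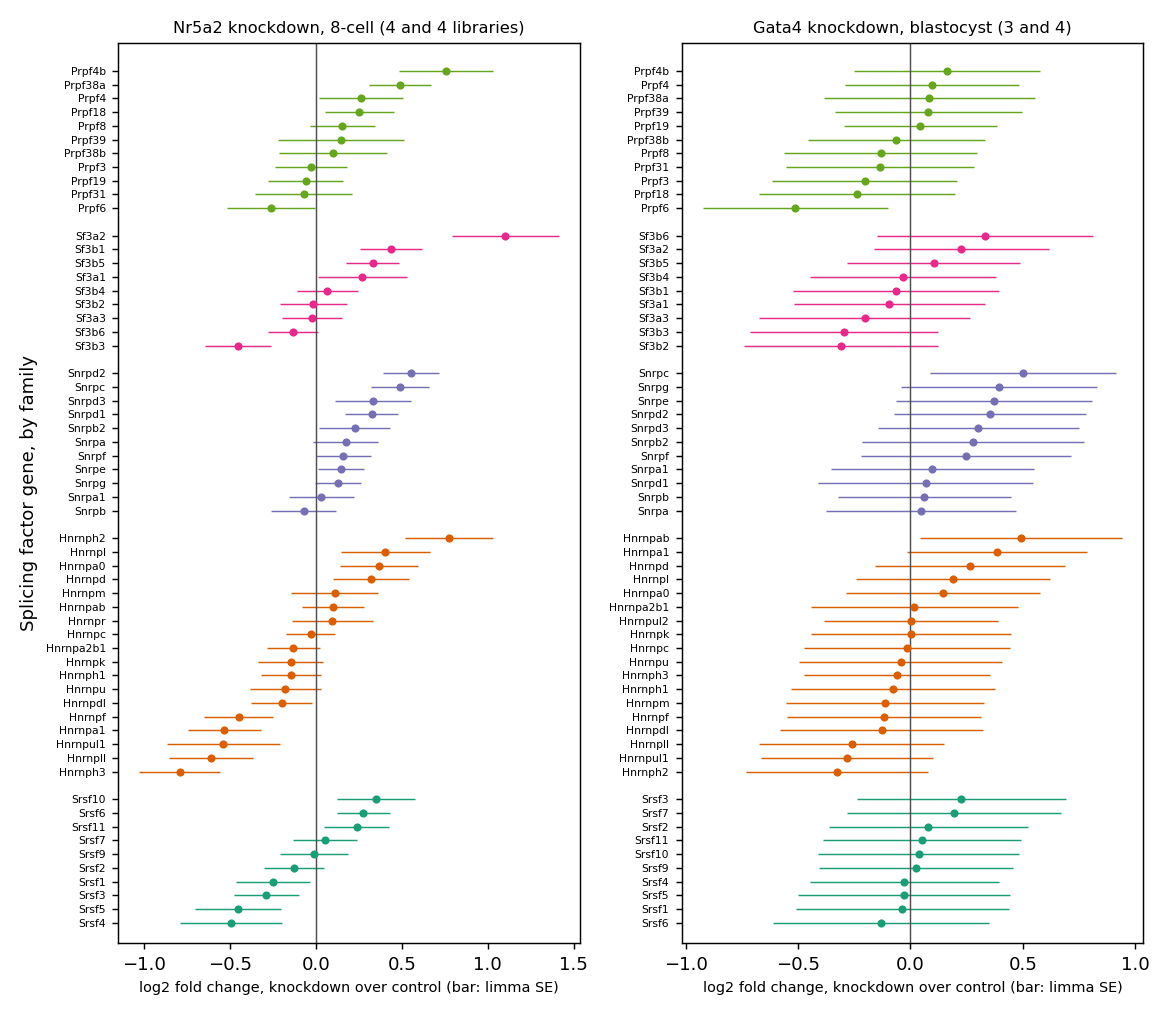
Log2 fold change of knockdown over control on log2(FPKM + 1) (x axes) with limma's SE as bars, for 59 of the 60 splicing factor genes tested in each knockdown (y axes, by family). None passed an adjusted p of 0.05, and the bars are wider for blastocysts, where the SEs of the members tested run from 0.34 to 0.49, than for 8-cell embryos, where they run from 0.13 to 0.37.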

How the data were processed

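The deposited values are FPKM, made by the authors per gene, as 1 column per stage in the stage table and 1 column per library in the knockdown tables. CASAVA 1.8 and STAR 2.4.0 with the mm9 build are named for 32 samples, and Cufflinks 2.2.1 for 20, per the submitters' processing notes. The way stage replicates were merged into a single column is not given in the sources used here, and 0 other columns of samples were left out. FPKM hold no read totals, so no counting interval was given. The relative depth of libraries was read from steps between low values and limits the precision of low genes. Samples were grouped by their labels.

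Stages were compared as differences of log2(FPKM + 1), with no test. Knockdowns were tested with limma 3.58.1 (R 4.3.3) on log2(FPKM + 1) with a variance trend, over genes that reached 1 FPKM in 4 or more 8-cell libraries or in 3 or more blastocyst libraries, and p-values were adjusted by Benjamini-Hochberg over all genes tested (threshold 0.05). Fold changes on this scale understate changes of low genes. The limma script was tested on simulated data. Near-identical copies were sought with minimap2 2.31 among GENCODE M21 transcripts (at least 95% identity over 50% of the coding sequence). Python 3.11.15, pandas 2.3.3, numpy 2.4.6 and matplotlib 3.10.9 were used.

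The members and lists were chosen with earlier results of these data known. Genes were named by a rule: any called member, per family the 3 with the highest mean, the 3 with the largest range over stages and the 2 with the smallest p in each knockdown, and the extremes of each step. The other members were named to complete each family, after their values were seen, except that 1 member is counted but not reported here by itself. Alternatives were pseudocounts of 0.1 and 5, other scalings, filters, leaving out each library, a replicate block and, for blastocysts, the kind of library. The comparisons within 1 kind of column (MII oocyte to early 2-cell, zygote to 2-cell, early 2-cell to mESC) and those without copied genes were added after seeing the data.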

Additional observations from a re-analysis of the deposited data

Results flagged for a closer look

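Among 103 groups of 4 libraries, 1 library stood apart from its group in 4, and chance gives about 1 in 20. Sf3b6 stood at 86.0 FPKM in 8-cell control 3, above 82.8 to 83.1 FPKM in the other controls. Prpf6 stood at 30.1 FPKM in Nr5a2 knockdown 4, above 15.8 to 18.3 FPKM. Nr5a2 knockdown 3 was low for Sf3b5, at 232 FPKM against 323 to 328 FPKM, and for Snrpd3, at 188 FPKM against 243 to 252 FPKM.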

How the results depend on the processing

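No member passed limma's adjusted threshold in either knockdown under any alternative run. The lowest adjusted p was 0.0601 in the Nr5a2 knockdown (Snrpd2 without knockdown 3) and 0.565 in the Gata4 knockdown (Prpf6, libraries with Rn45s). Leaving out each library gave 0 to 0 members. With a replicate block 0 members were called, and 37 genes rose and 18 fell in the Nr5a2 knockdown and 4 and 14 in the Gata4 knockdown. The deviations of same-numbered libraries correlated at -0.1082 to 0.0821 and at -0.0956 to 0.2772, not above 0.1 in every pair, so the numbers were not taken as pairs. Over all genes the 128 higher and 57 lower calls of the Nr5a2 knockdown became 73 and 35 with a pseudocount of 0.1, 7 and 4 without the filter, and 13 and 8 (without control 1) to 177 and 108 (without knockdown 3), and the 0 and 3 of the Gata4 knockdown became 0 and 1 (without control 1) to 2 and 25 (without knockdown 2).

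The sign of the fold change turned under at least 1 alternative for 51 of the 60 members tested in the Gata4 knockdown and for 17 of 60 in the Nr5a2 knockdown. Among the 10 members with the smallest p in the Gata4 knockdown (2 per family) 3 turned. Leaving out each library, Prpf18 ranged from -0.5481 to 0.0852 (positive without control 2), Srsf3 from -0.0228 to 0.6208 (negative without control 3 or knockdown 2) and Srsf7 from -0.1294 to 0.6204 (negative without control 3, knockdown 1 or knockdown 2). In libraries with Rn45s alone Srsf3 was -0.0117 and Srsf7 -0.0906, and with library kind as a term Srsf7 was -0.0345.

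Among stage steps, a pseudocount of 5 gave 0 members higher from MII oocyte to zygote, 2 higher and 1 lower from zygote to early 2-cell, 3 lower from early 2-cell to 2-cell, 0 lower from 2-cell to 4-cell and 2 higher from 8-cell to ICM. A minimum of 1 FPKM gave 3 higher from MII oocyte to zygote. The same total gave 11 higher and 4 lower from MII oocyte to zygote, 3 lower from early 2-cell to 2-cell, 10 higher and 4 lower from 2-cell to 4-cell, and 1 lower from 4-cell to 8-cell. The same median gave 2 higher from MII oocyte to zygote, 1 lower from zygote to early 2-cell, 9 lower from early 2-cell to 2-cell, 2 lower from 2-cell to 4-cell, 1 higher from 4-cell to 8-cell and 2 lower from ICM to mESC. The log2 ratio of the family sum in 8-cell embryos over MII oocytes went, as a share of the total, from 2.13 to 2.69 for SR, 1.14 to 1.7 for hnRNP, 0.46 to 1.02 for snRNP, 0.61 to 1.17 for SF3 and -0.43 to 0.13 for Prpf genes. The cause of these differences was not tested. Of the other values, 301 for single genes and 83 for counts and sums kept their direction and call.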
